A study of Mus musculus with 14 samples.

Results

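Cholesterol synthesis and sterol homeostasis genes were followed in 3T3-L1 cells, an established line of mouse preadipocytes that hormones drive to become fat cells. The set was a list of 29 genes chosen by name, with earlier results of these data known. Its counts and medians, given beside those of all genes, therefore describe the list and do not test it. Of the 29 genes, 27 had a probe set with 1 gene symbol and stood among 18193 genes tested. The other 2, Acat2 of the mevalonate steps and Soat1 of sterol storage and efflux, were not analysed here. A gene with several such probe sets was read from its brightest one, judged by the mean of all 14 arrays. Of the 27 genes, 17 encode enzymes of cholesterol synthesis, 5 belong to sterol sensing, and 5 to efflux or transport of sterols or removal of lipoprotein receptors.

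Total RNA of 4 groups was hybridised to expression arrays, 1 array per sample. KD cells carried a lentivirus with an siRNA sequence against TP53INP2 and Control cells a lentivirus with a scrambled sequence. Both were taken at day 7 of differentiation (adipocytes, 4 KD and 4 Control arrays) and at day 0, when confluent preadipocytes were induced (3 KD and 3 Control arrays). All groups therefore share the cell line and lentiviral transduction, and the virus or derivation of each cell population and the knockdown itself cannot be told apart. Whether replicates were independent cultures is not given in the labels, and the p-values cover only the spread among these arrays, part or all of which may be technical.

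Cells make cholesterol from acetyl-CoA by way of mevalonate, farnesyl diphosphate, squalene and lanosterol, and a chain of enzymes then trims lanosterol to cholesterol. When membranes of the endoplasmic reticulum are low in sterol, SCAP carries the SREBP transcription factors to the Golgi, where they are cut and released to switch these enzymes on. INSIG proteins hold SCAP back when sterols are plentiful, and fat cells are known for storing much free cholesterol around their lipid droplets.

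The promoters of 3 of the enzymes are shown first, as the 250 bases before the annotated start in RefSeq (GRCm38.p6), 5′ to 3′ on the gene's strand. Capitals mark the NF-Y box, read as CCAAT on the printed strand or ATTGG for the other strand, and in Hmgcs1 also an SRE-like match to TCACNCCAC, the kind of element that SREBPs bind. Cyp51 lies at chr5:4104698-4104947 on the minus strand, Msmo1 at chr8:64733579-64733828 on the minus strand, and Hmgcs1 at chr13:119690101-119690350 on the plus strand.
Cyp51: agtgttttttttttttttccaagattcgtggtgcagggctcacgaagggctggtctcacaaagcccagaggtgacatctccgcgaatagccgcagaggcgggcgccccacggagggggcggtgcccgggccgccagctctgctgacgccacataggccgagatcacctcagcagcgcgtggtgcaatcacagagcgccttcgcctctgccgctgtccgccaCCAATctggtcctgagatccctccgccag
Msmo1: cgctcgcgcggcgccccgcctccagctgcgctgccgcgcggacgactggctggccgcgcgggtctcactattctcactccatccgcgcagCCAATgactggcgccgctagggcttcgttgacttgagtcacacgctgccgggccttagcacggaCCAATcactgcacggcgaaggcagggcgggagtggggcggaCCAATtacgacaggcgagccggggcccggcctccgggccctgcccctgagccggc
Hmgcs1: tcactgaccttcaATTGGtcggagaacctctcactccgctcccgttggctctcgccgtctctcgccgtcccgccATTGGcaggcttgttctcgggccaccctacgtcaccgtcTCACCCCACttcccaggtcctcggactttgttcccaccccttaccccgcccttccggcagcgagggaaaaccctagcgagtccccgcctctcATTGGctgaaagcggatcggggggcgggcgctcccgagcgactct

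A promoter window was found for 23 of the 29 listed genes, 15 of them synthesis genes, and each motif was counted on its own on both strands. CCAAT, bound by NF-Y, a partner of SREBPs, was in a window of 14 of the 15 synthesis genes (93.3%), against 37.5% of 27025 genes with such a window. GGGCGG, the box of the factor Sp1, was also in 14 of the 15 (93.3%), against 35.4% of all genes. The Hmgcs1 window printed above held the one match to TCACNCCAC among the 15, ending 128 bases before the start, and 1.22% of all genes held one. These are matches of letters only, and no factor binding was measured.

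Levels below are log2 expression values, so a difference of 1 is a 2-fold change. Each adjusted p comes from 1 limma fit over all 18193 genes, each difference is given with its standard error (SE), and a gene was called at an adjusted p under 0.05. Array medians lay between 5.44 and 5.57. Trp53inp2, the mouse gene for TP53INP2, measured 10.20, 10.06, 10.01 and 10.45 in KD cells at day 7, against 11.74, 11.77, 11.78 and 11.70 in Control cells. At day 0 it measured 11.06, 11.14 and 11.66 in KD cells, against 12.45, 12.53 and 12.38 in Control cells. The target was thus lower in every KD array than in every Control array of its day. It fell by 1.57 ± 0.13 at day 7 (adjusted p = 0.000111) and fell by 1.17 ± 0.15 at day 0 (adjusted p = 0.00205). Of 10 listed fat cell markers 8 were measured, without Plin1 and Cfd. Of the 8, 7 were called higher at day 7 than at day 0 in both KD and Control cells. Of all genes, 19% were called higher in KD cells and 10.1% in Control cells. Lep, the leptin gene, at 2.18 to 2.81 in all arrays, was not called.

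At day 7 most synthesis genes lay higher in KD than in Control cells, and Cyp51 stood out. Of the 17 synthesis genes, 15 had a difference above 0, with a median of 0.34, against a median of -0.02 over all genes. One of the 27 sterol genes was called, Cyp51, which rose 2.88-fold; of all genes 6.58% were called in either direction, 3.01% as higher and 3.57% as lower. An unadjusted p under 0.05 was reached by 5 of the 27 sterol genes in the higher direction and 1 in the lower. Of all 18193 genes, 2079 reached it in the higher direction and 2194 in the lower. KD and Control arrays of 1 replicate number deviated together within a day, so a fit with these pairs as a block was run as well. It called 10 of the 27 genes, all higher and 8 of them synthesis genes, where it called 14.7% of all genes in either direction and 7.54% as higher. With the block and replicates 1 and 2 averaged, only Cyp51 and Msmo1 stayed called, against 1.68% of all genes. Fdps, Idi1, Sc5d, Lss, Abcg1, Nsdhl, Insig1 and Pmvk were then lost (adjusted p from 0.053 to 0.128). With the block and without both day 7 arrays of number 3, Nsdhl, Insig1 and Abcg1 were lost (adjusted p = 0.11, 0.0995 and 0.114).

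**Figure D1:**
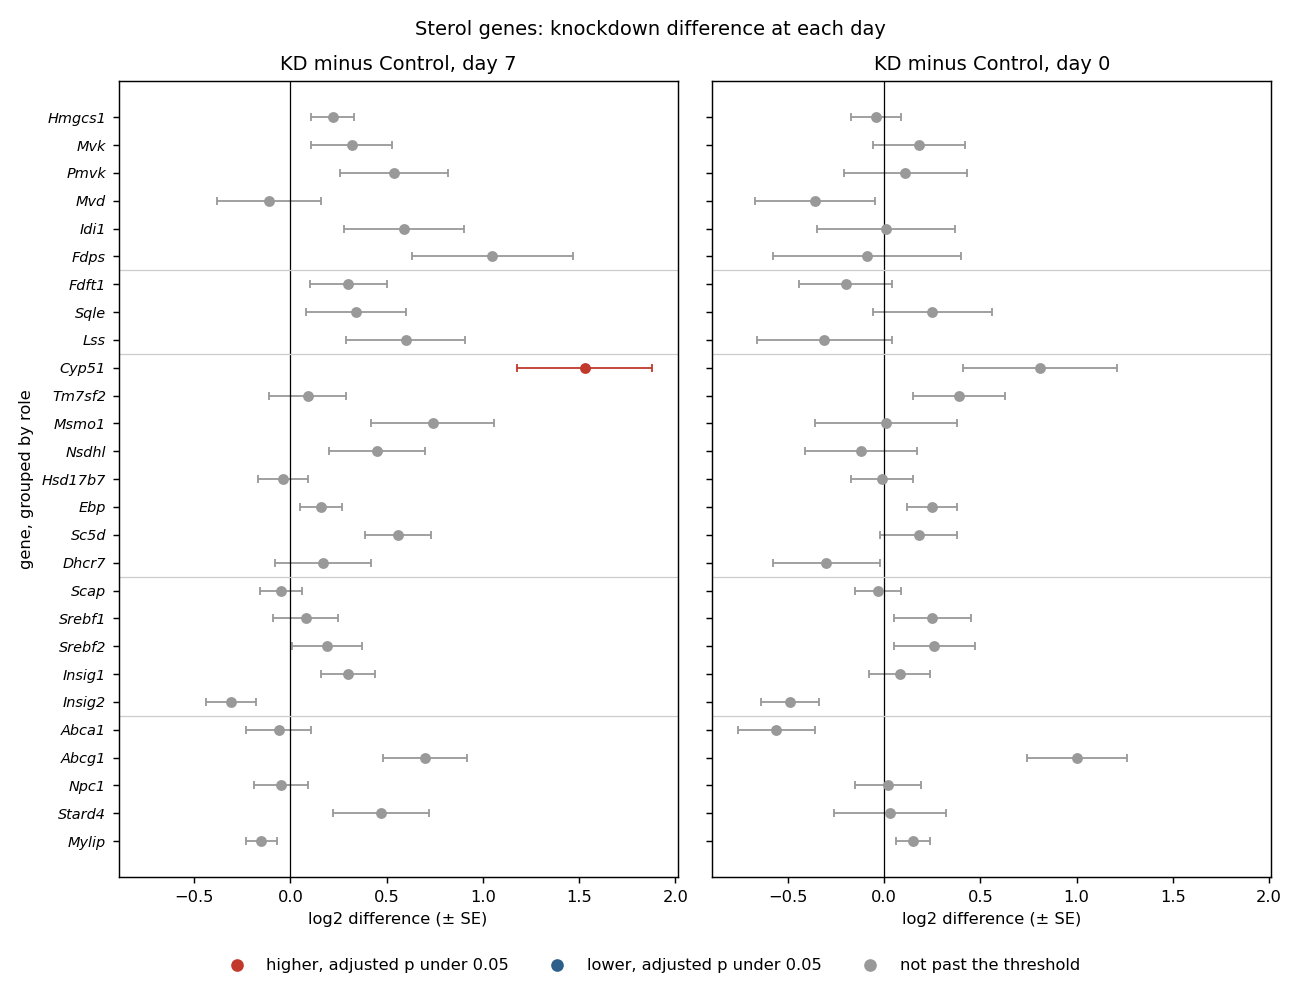
KD minus Control differences (log2, horizontal axis, ± SE) of the 27 sterol genes at day 7 (left) and day 0 (right), grouped by role from mevalonate steps at the top to efflux and transport at the bottom. Cyp51 at day 7 (1.53) is the one coloured point, since it alone passed the threshold; 15 of 17 synthesis genes lie right of 0 at day 7 and 9 of 17 at day 0.

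Cyp51 encodes lanosterol demethylase, which starts the trimming of lanosterol. It measured 12.08, 12.17, 10.96 and 12.06 in KD cells at day 7, against 10.86, 10.91, 9.25 and 10.14 in Control cells. The groups did not overlap, and replicate 3 was the lowest array in both. The difference was 1.53 ± 0.35 (95% interval 0.77 to 2.28, adjusted p = 0.026), and 1.53 ± 0.13 with the block (adjusted p = 0.00208). The other probe sets of the gene, which are dimmer, gave 1.70 ± 0.47 and 2.01 ± 0.53, and neither passed when all probe sets were tested (adjusted p = 0.0664 and 0.0578). Over 30 settings the difference stayed between 1.18 and 1.81 and was called in 23. The call was lost without KD replicate 1, 2 or 4 or Control replicate 4, with adjusted p from 0.0658 to 0.0864, and in a fit of only the day 7 groups (adjusted p = 0.0924). It was also lost with the probe set that varied most between arrays (1.70, adjusted p = 0.0512) and with replicates 1 and 2 of each group averaged (1.62, adjusted p = 0.178), which were closer to each other at day 7 than other replicates were.

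Among the other enzymes after lanosterol, Msmo1 and Sc5d followed the same direction. Msmo1, the methyl sterol oxidase that follows the demethylase, measured 10.81, 10.88, 9.65 and 10.58 in KD cells, against 10.26, 10.32, 8.87 and 9.52 in Control cells. Its groups overlapped, because KD replicate 3 lay below Control replicates 1 and 2. The difference was 0.74 ± 0.32 (adjusted p = 0.19), and 0.74 ± 0.11 with the block (adjusted p = 0.00665). A second, dimmer Msmo1 probe set gave only 0.29 ± 0.29 (adjusted p = 0.66 when all probe sets were tested). Sc5d, a sterol desaturase of the late steps, measured 9.42, 9.47, 9.01 and 9.43 in KD cells, against 8.77, 8.91, 8.52 and 8.88 in Control cells, with no overlap. Its difference of 0.56 ± 0.17 missed the threshold (adjusted p = 0.0664) and passed with the block (adjusted p = 0.0182). A second Sc5d probe set near this brightness did not share the difference, at -0.11 ± 0.17. Nsdhl, a dehydrogenase of the demethylation steps, gave 0.45 ± 0.25 and was called with the block (adjusted p = 0.0471). The remaining 4, Tm7sf2, Hsd17b7, Ebp and Dhcr7, lay between -0.04 and 0.17 and were called in neither fit.

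**Figure D2:**
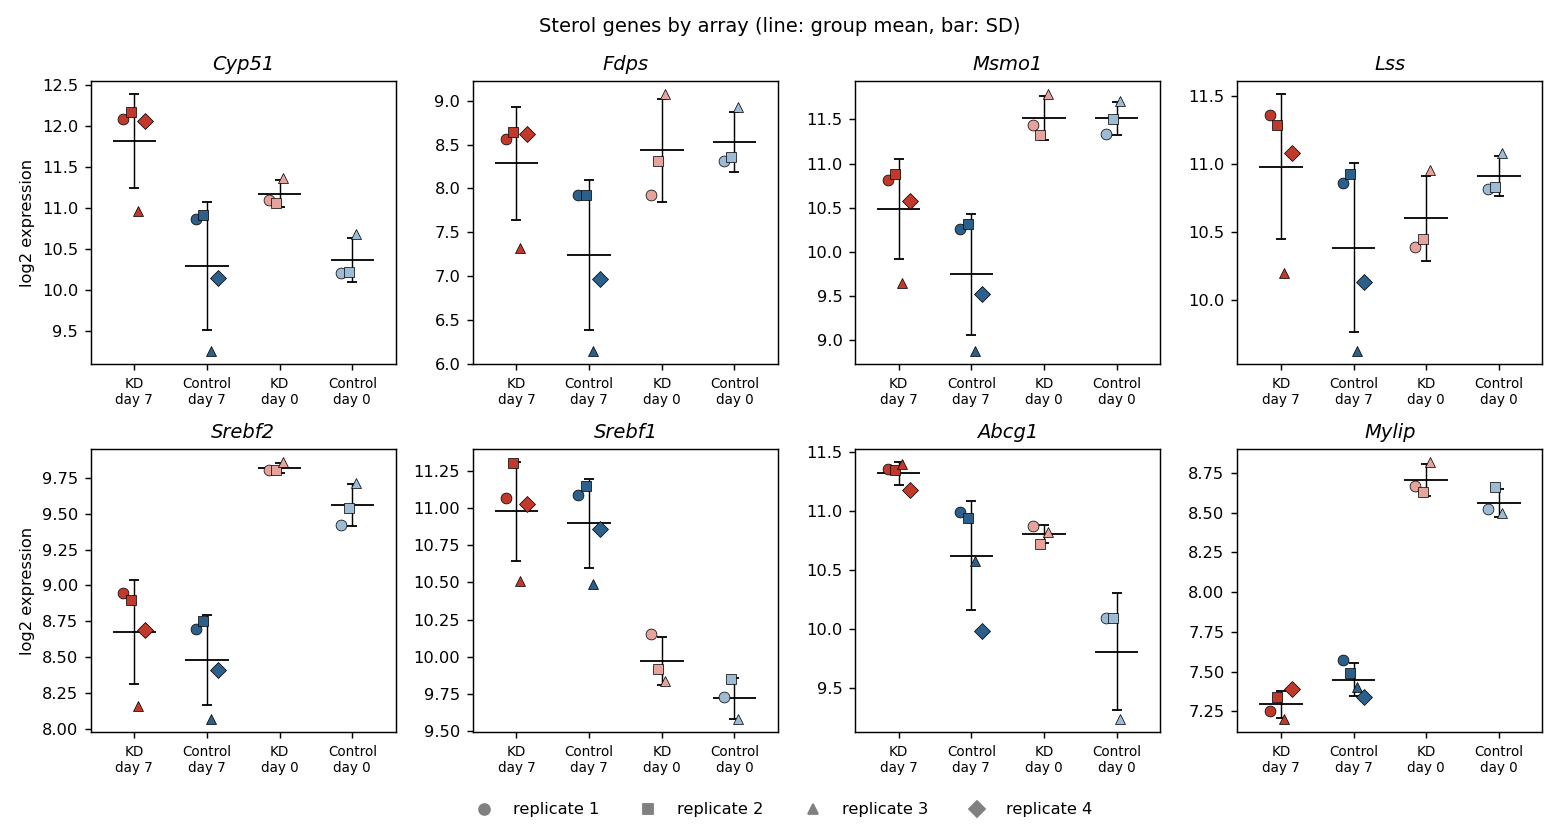
Log2 expression (vertical axis) of 8 sterol genes in each array, with KD left of Control and day 7 left of day 0; lines are group means, bars SD, and symbols replicate numbers. Cyp51 at day 7 lies between 10.96 and 12.17 in KD cells, above Control cells at 9.25 to 10.91, and the replicate 3 triangles are the lowest day 7 points for Cyp51, Fdps, Msmo1 and Lss.

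Of the 6 mevalonate genes, 5 lay above 0 and none was called without the block. Fdps, which makes farnesyl diphosphate, had the largest difference of them. It measured 8.57, 8.64, 7.32 and 8.62 in KD cells, against 7.92, 7.93, 6.14 and 6.97 in Control cells. KD replicate 3 again lay among the Control values, while the other KD arrays lay above all of them. The difference was 1.05 ± 0.42 (adjusted p = 0.154), and 1.05 ± 0.17 with the block (adjusted p = 0.00953). Without KD replicate 3 it was 1.37 (adjusted p = 0.0396). The isomerase gene Idi1 (0.59 ± 0.31) and the kinase gene Pmvk (0.54 ± 0.28) were called with the block too (adjusted p = 0.0101 and 0.0378). Mvk, which phosphorylates mevalonate, and Hmgcs1, which makes the precursor of mevalonate, gave 0.32 ± 0.21 and 0.22 ± 0.11 and were called in neither fit. Mvd, the decarboxylase, lay at -0.11 ± 0.27.

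The 3 genes from squalene to lanosterol lay between 0.30 and 0.60. Lss, which closes the sterol ring system, measured 11.36, 11.29, 10.20 and 11.08 in KD cells, against 10.86, 10.93, 9.62 and 10.13 in Control cells. Replicate 3 was the lowest array of either group, and the groups overlapped through it. The difference of 0.60 ± 0.31 (adjusted p = 0.269) was called with the block (adjusted p = 0.0137). Another Lss probe set gave 0.61 ± 0.30 and the dimmest -0.04 ± 0.23, so the probe sets of this gene disagree. Fdft1, squalene synthase, and Sqle, squalene epoxidase, gave 0.30 ± 0.20 and 0.34 ± 0.26 and missed the threshold in both fits (with the block, adjusted p = 0.051 and 0.0671).

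Set against its own pair, the KD array was higher for 14, 15, 15 and 15 of the 17 synthesis genes in pairs 1 to 4. Over all genes the KD array was higher for 50.4%, 47.6%, 48% and 49.2%. The mean difference over the 17 genes was 0.34, 0.32, 0.43 and 0.66 in the same pairs. Pair 4 thus had the largest mean difference and pair 3, whose arrays had the lowest levels, stood between the others. All synthesis genes but Mvd, Tm7sf2, Hsd17b7 and Ebp were higher in the KD array of each of the 4 pairs.

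**Figure D3:**
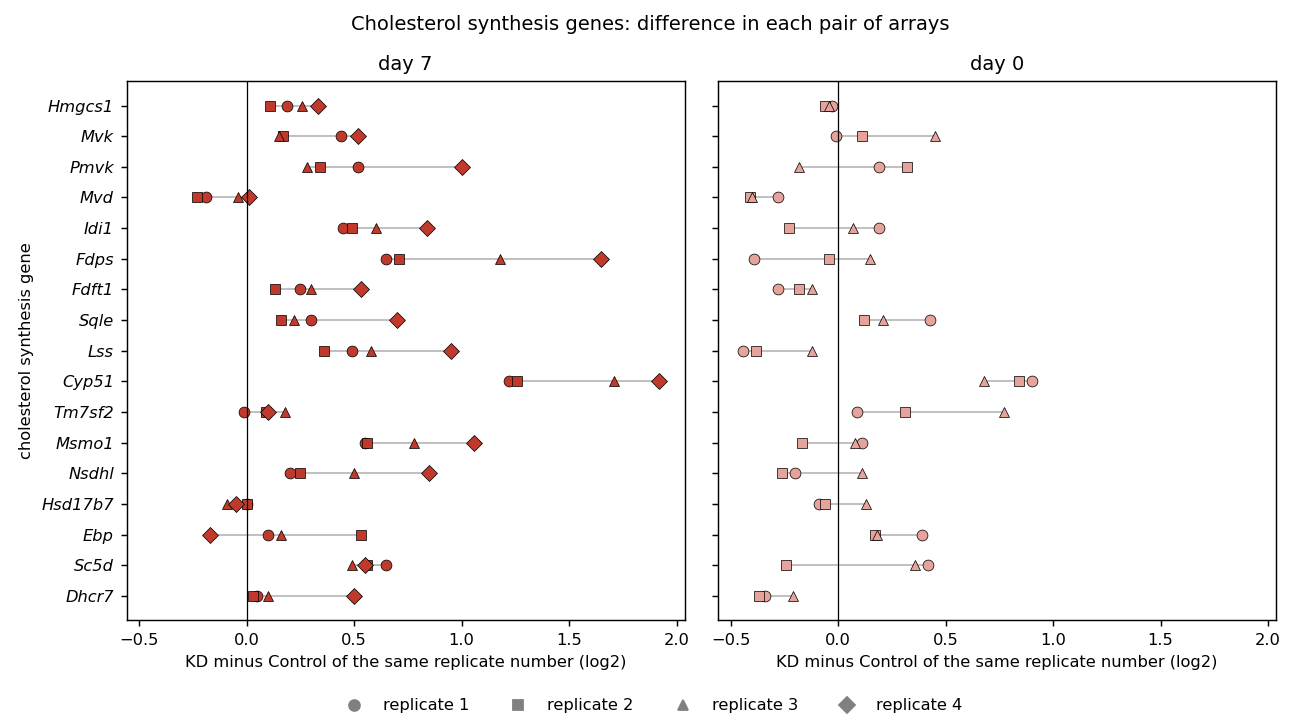
KD minus Control difference (log2, horizontal axis) of each cholesterol synthesis gene in each pair of arrays with the same replicate number, at day 7 (left, 4 pairs) and day 0 (right, 3 pairs). At day 7 all genes but Mvd, Tm7sf2, Hsd17b7 and Ebp have their 4 points right of 0; at day 0 the points lie on both sides, at a mean of 0.04, -0.03 and 0.12 in pairs 1 to 3.

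The sensing genes moved less at day 7. Insig1, which holds SCAP in the endoplasmic reticulum and is itself switched on by SREBPs, measured 12.64, 12.69, 12.29 and 12.80 in KD cells, against 12.48, 12.48, 11.94 and 12.34 in Control cells. Only KD replicate 3 lay among the Control values. Its difference of 0.30 ± 0.14 (adjusted p = 0.216) passed with the block (adjusted p = 0.0404). Insig2, its relative with the same retaining role, lay the other way. It measured 9.79, 9.75, 9.89 and 9.71 in KD cells, against 10.11, 10.02, 10.53 and 9.73 in Control cells. The groups overlapped through Control replicate 4, and the difference of -0.31 ± 0.13 was called in neither fit (adjusted p = 0.183, and 0.0882 with the block). The SREBP genes Srebf1 and Srebf2 gave 0.08 ± 0.17 and 0.19 ± 0.18, and Scap, the escort of both proteins, -0.05 ± 0.11.

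Of the transport genes, Abcg1, which exports sterol to lipoprotein particles, was higher in every KD array. It measured 11.36, 11.35, 11.40 and 11.18 in KD cells, against 10.99, 10.94, 10.58 and 9.98 in Control cells. The groups did not overlap, which also held for Cyp51 and Sc5d; these 3 of 27 genes compare with 6.02% of all genes that lay higher without overlap, and 0 of 27 lay lower, against 6.96% of all genes. The Abcg1 difference was 0.70 ± 0.22 (adjusted p = 0.0793), and passed with the block (adjusted p = 0.0462). A dimmer Abcg1 probe set gave 0.49 ± 0.32 (adjusted p = 0.457 when all probe sets were tested). Stard4, a cytosolic sterol carrier, gave 0.47 ± 0.25 and just missed the threshold with the block (adjusted p = 0.0509). Abca1, the exporter to apolipoproteins, Npc1, which releases sterol from late endosomes, and Mylip, the ubiquitin ligase that removes lipoprotein receptors, lay between -0.15 and -0.05.

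Replicate 3 was low in both groups at day 7, and fat cell markers moved with it. The mean over the 17 synthesis genes was 10.38, 10.40, 9.59 and 10.22 in KD arrays 1 to 4 at day 7, against 10.03, 10.07, 9.16 and 9.56 in Control arrays. The mean of 8 fat cell markers in the same order was 10.65, 10.59, 9.64 and 10.70 in KD cells, against 10.08, 10.15, 8.67 and 8.83 in Control cells. Both measures were lowest in array 3 of each group, and both were higher in KD than in Control in each of the 4 pairs. In pair 4 the marker mean of the Control array (8.83) lay near that of Control array 3 (8.67). The KD array of pair 4 had the highest marker mean of the KD arrays (10.70). Of the 8 markers, 0 were called at day 7 between KD and Control, where 6.58% of all genes were called. The median difference of the markers was 1.04, against -0.02 over all genes. An unadjusted p under 0.05 was reached by 4 of the 8 markers, all higher, and by 2079 of all 18193 genes in that direction. Their summed linear level ran from 24060 to 39160 in KD cells, against 16641 to 29384 in Control cells. Of 7 preadipocyte or fibroblast markers 1 was called, Pdgfra, at -0.49 ± 0.13 (adjusted p = 0.0436). Of all genes, 3.57% were called lower. All 7 markers lay below 0, as did 9630 of all 18193 genes. The summed level of the 7 markers ran from 27046 to 38307 in KD cells, against 34345 to 42377 in Control cells. The part of these markers in the sterol gene differences was not tested, and more cells of a type and more RNA per cell cannot be told apart in bulk RNA.

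**Figure D4:**
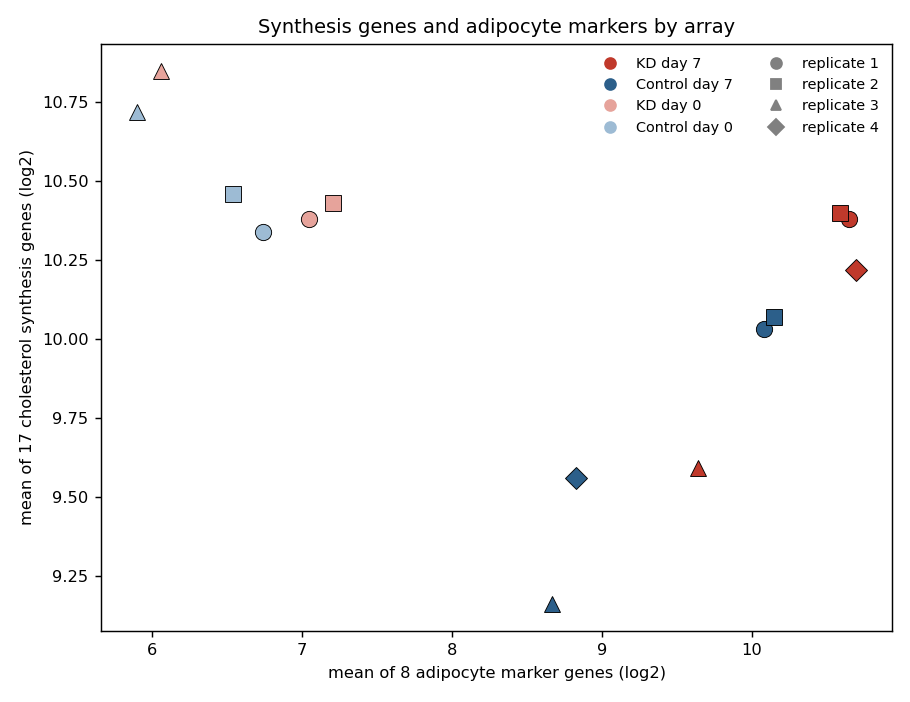
Mean of 17 cholesterol synthesis genes (log2, vertical axis) against the mean of 8 fat cell markers (log2, horizontal axis), 1 point per array, with colours for groups and symbols for replicate numbers. Among day 7 arrays the replicate 3 points lie lowest in both groups (9.59 in KD, 9.16 in Control), while among day 0 arrays the replicate 3 points lie highest (10.85 in KD, 10.72 in Control).

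Markers of other cell types were mostly at low values, apart from the macrophage markers Csf1r, Cd14 and Cd68. The leukocyte markers Ptprc, Adgre1 and Itgam stayed at or below 3.62 in all arrays, and endothelial, epithelial and skeletal muscle markers lay between 2.25 and 6.14. Of these lists, 0 markers were called between KD and Control at either day, where 6.58% of all genes were called at day 7 and 1.8% at day 0. Csf1r, a macrophage receptor, reached 9.88 in KD replicate 3 and 9.12 in Control replicate 3 at day 7, against 7.87 to 8.74 in the other KD arrays and 7.61 to 8.43 in the other Control arrays. Cd14 was likewise highest in replicate 3, at 8.87 in KD and 9.12 in Control. Cd68 lay between 5.99 and 7.12 in all arrays and did not share this. In replicate 3 of day 7 it was 6.47 in KD, below KD replicates 1 and 2, and 6.25 in Control, the lowest Control array of that day. The gap between 3′ and 5′ beta-actin control probe sets, a measure of RNA integrity and amplification, was 2.98, 3.10, 2.70 and 3.37 in KD cells, against 3.47, 3.48, 2.82 and 3.22 in Control cells. It overlapped between the groups and was smallest in replicate 3 of each. With it as a covariate 4 sterol genes were called at day 7, all higher, where 15.4% of all genes were called, and the synthesis median was 0.49. Leaving out both replicate 3 arrays gave a synthesis median of 0.39, with 2 genes called, against 12% of all genes, and 7 with the pairs as blocks, against 13%. Leaving out only KD replicate 3 gave 0.58 and 4 called genes, against 15.9% of all genes, and leaving out only Control replicate 3 gave 0.18 and 1 called gene, against 3.25%. Without KD replicate 1 the median was 0.22 and 0 genes were called, against 2.03%.

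Before differentiation the synthesis genes were spread around 0. At day 0 the median over the 17 genes was 0.01, with 9 above 0, against -0.05 over all genes. None of the 27 sterol genes was called, where 1.8% of all genes were (0.467% as higher and 1.34% as lower). An unadjusted p under 0.05 was reached by 1 sterol gene in the higher direction and 2 in the lower. Of all 18193 genes, 815 reached it in the higher direction and 1993 in the lower. With the block 2 were called, Cyp51 and Abcg1, both higher, against 4.64% of all genes in either direction, 1.24% as higher and 3.4% as lower. The KD array was higher for 8, 6 and 11 of the 17 synthesis genes in pairs 1 to 3, and for 42%, 45% and 40.9% of all genes. The beta-actin gap moved with these groups, at 3.23, 2.97 and 2.74 in KD cells against 3.76, 3.54 and 3.32 in Control cells, without overlap. With the gap as a covariate 0 sterol genes were called at day 0, but 15 of the 17 synthesis genes lay above 0 and their median was 0.22, so the day 0 median depends on this setting.

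Cyp51 measured 11.10, 11.06 and 11.36 in KD cells at day 0, against 10.20, 10.22 and 10.68 in Control cells. The groups did not overlap at this day either. The difference was 0.81 ± 0.40 (adjusted p = 0.367), and 0.81 ± 0.15 with the block (adjusted p = 0.0273). With the block and replicates 1 and 2 averaged the Cyp51 value was 0.78 and was not called (adjusted p = 0.201). Its dimmer probe sets gave 0.60 ± 0.54 and 0.32 ± 0.62. Abcg1 measured 10.87, 10.72 and 10.82 in KD cells, against 10.09, 10.09 and 9.23 in Control cells. The KD arrays were close together and all above the Control arrays, of which replicate 3 was the lowest. The difference was 1.00 ± 0.26 (adjusted p = 0.0727), and passed with the block (adjusted p = 0.0465). That call was lost with the block and replicates 1 and 2 averaged (1.15, adjusted p = 0.201) and with the block and without both day 7 arrays of number 3 (adjusted p = 0.0643). In the fit without pairs Abcg1 was called at day 0 without Control replicate 4 of day 7 (adjusted p = 0.0311). The dimmer Abcg1 probe set gave 1.09 ± 0.37 at day 0 (adjusted p = 0.146 when all probe sets were tested).

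Insig2 and Abca1 pointed down at day 0. Insig2 measured 9.60, 9.44 and 9.60 in KD cells, against 9.99, 10.04 and 10.08 in Control cells, without overlap. Its difference was -0.49 ± 0.15 (adjusted p = 0.147, and 0.0654 with the block; 0.0422 without Control replicate 3 of day 7), and its other probe sets gave -0.61 ± 0.18 and -0.50 ± 0.19. Abca1 measured 10.16, 9.98 and 10.89 in KD cells, against 11.03, 10.98 and 10.72 in Control cells. KD replicate 3 lay within the Control range, apart from the other KD arrays. The difference was -0.56 ± 0.20 (adjusted p = 0.195), and without KD replicate 3 it was -0.84 (adjusted p = 0.0125). Without overlap, 4 of the 27 genes lay higher in KD (Cyp51, Ebp, Srebf2 and Abcg1) and 2 lower (Dhcr7 and Insig2), where 6.89% of all genes lay higher and 15.7% lower.

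The knockdown difference was then compared between the days. The day 7 difference minus the day 0 difference had a median of 0.43 over the 17 synthesis genes, with 14 above 0, against 0.04 over all genes. This median was 0.65 without KD replicate 3 of day 7, 0.27 without Control replicate 3 of day 7, 0.28 without Control replicate 3 of day 0 and 0.24 with the beta-actin covariate. None of the 27 genes was called, where 4 of all genes were (0.022%, with 0.0055% as lower), and with the block again 0, where 1.08% of all genes were. The largest values were 1.14 ± 0.64 for Fdps (adjusted p = 0.483, and 0.0747 with the block) and 0.91 ± 0.47 for Lss (adjusted p = 0.438, and 0.0524 with the block). Cyp51 gave 0.72 ± 0.53 (95% interval -0.43 to 1.88, adjusted p = 0.609). Among the others Mylip gave -0.30 ± 0.12 (adjusted p = 0.323). A knockdown difference that is called at one day and not at the other is therefore not shown to differ between them.

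During differentiation, 9 of the 17 synthesis genes fell in Control cells and 8 fell in KD cells, and in the fit of all arrays none rose. In Control cells the median over synthesis genes was -0.57, against -0.01 over all genes. Of the 27 sterol genes 2 were higher and 14 lower at day 7 than at day 0, where 22.9% of all genes were called, 10.1% as higher and 12.8% as lower. In KD cells the median was -0.28, against 0.01 over all genes, and 2 genes were higher and 12 lower, where 35.8% of all genes were called, 19% as higher and 16.8% as lower. The KD median rests on replicate 3: it was -0.09 without the day 7 array and -0.08 without the day 0 array, and -0.44 without KD replicate 2 of day 0. Without both day 7 arrays of number 3, 3 synthesis genes were called higher in KD cells, Cyp51 at 0.93 (adjusted p = 0.00317), Lss at 0.65 (adjusted p = 0.0349) and Pmvk at 0.68 (adjusted p = 0.0409), where 39.4% of all genes were called. Array weights called the same 3, at 0.93, 0.76 and 0.76. The KD minus Control comparison at day 7 uses the same day 7 arrays as these comparisons, and day 7 Control arrays enter it with the opposite sign, so opposite directions in the 2 comparisons are not independent of each other.

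**Figure D5:**
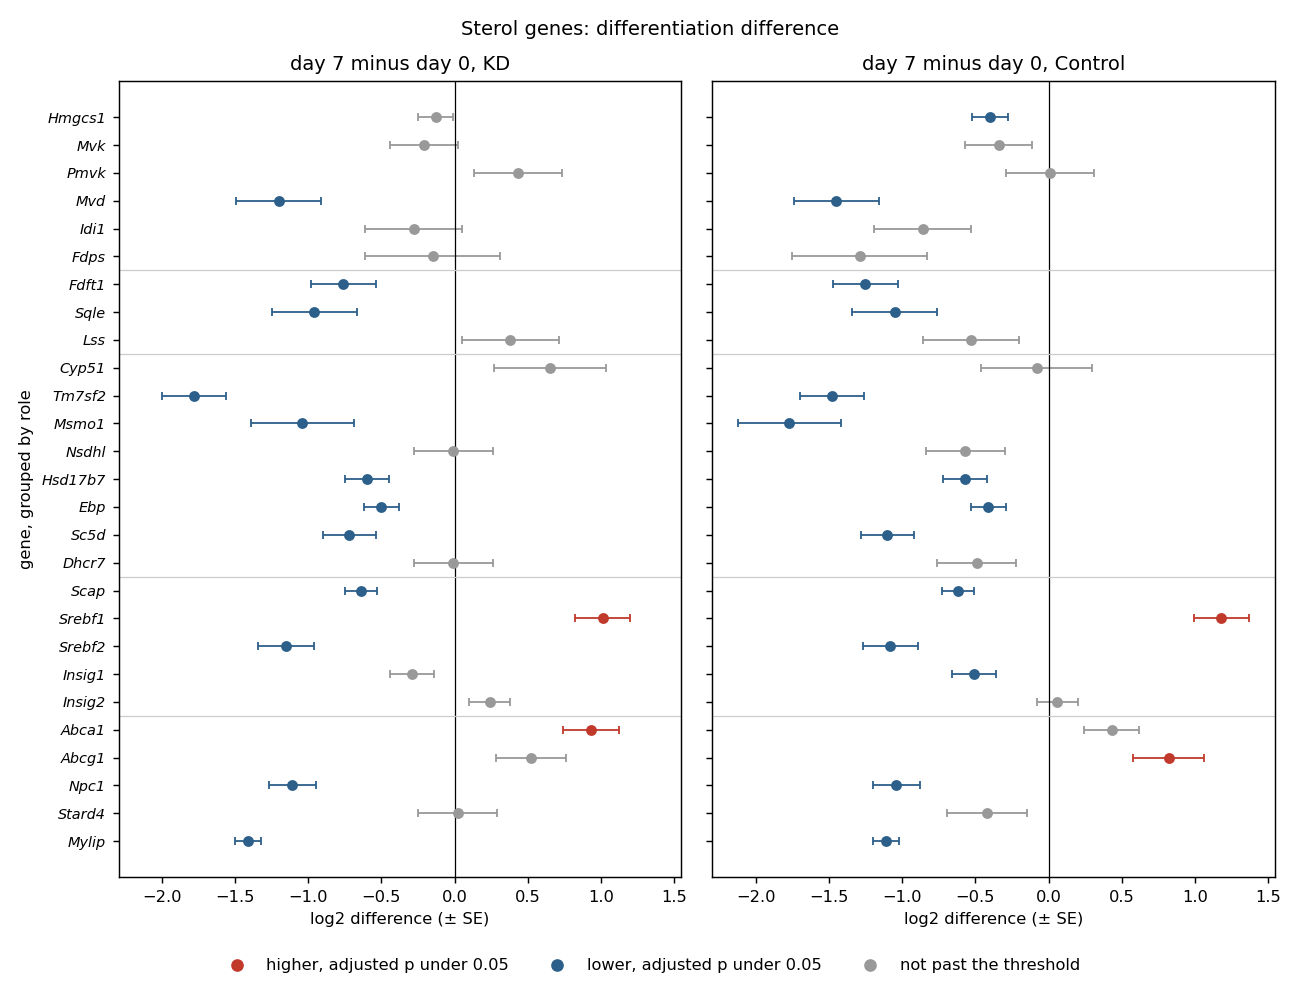
Day 7 minus day 0 differences (log2, horizontal axis, ± SE) of the 27 sterol genes in KD cells and in Control cells, grouped by role. Msmo1, Tm7sf2, Mvd, Srebf2, Npc1 and Mylip lie left of 0 in both, Srebf1 lies right of 0 in both, and Cyp51 lies at 0.65 in KD and -0.08 in Control.

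Msmo1 and Tm7sf2, both acting after lanosterol, had the steepest decreases of the enzymes in Control cells, and Tm7sf2 and Mvd, of the mevalonate steps, in KD cells. Msmo1 measured 11.44, 11.32 and 11.79 in KD cells at day 0 and 11.33, 11.50 and 11.71 in Control cells, and its day 7 values given above lay below all of these. It fell by 1.04 ± 0.35 in KD cells (adjusted p = 0.034) and fell by 1.77 ± 0.35 in Control cells (adjusted p = 0.00303). The KD call was lost in 6 of 27 settings, among them without replicate 3 of day 7 (-0.76, adjusted p = 0.0789), without KD replicate 4 of day 7 (-1.07, adjusted p = 0.053) and without replicate 1, 2 or 3 of day 0 (adjusted p = 0.0716, 0.0552 and 0.114). The second Msmo1 probe set gave -1.95 ± 0.31 in KD cells and -2.10 ± 0.31 in Control cells. Tm7sf2, a sterol reductase, measured 7.07, 7.08, 6.49 and 7.04 in KD cells at day 7, against 8.31, 8.67 and 9.13 at day 0. Its values in Control cells were 7.08, 7.00, 6.31 and 6.95 at day 7, against 8.23, 8.36 and 8.36 at day 0. Day 7 arrays thus lay more than 1 below the day 0 arrays in both. The gene fell by 1.78 ± 0.22 in KD cells (adjusted p = 4.82e-05) and by 1.48 ± 0.22 in Control cells (adjusted p = 0.00044).

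Sc5d measured 9.94, 9.80 and 10.43 in KD cells at day 0 and 9.52, 10.04 and 10.06 in Control cells, above each of its day 7 values of the same cells. It fell by 0.72 ± 0.18 in KD cells (adjusted p = 0.00731) and fell by 1.10 ± 0.18 in Control cells (adjusted p = 0.000951). The second probe set named above fell further, at -1.93 ± 0.18 in KD cells and -1.54 ± 0.18 in Control cells, so the 2 probe sets disagree on which cells had the larger decrease. Ebp, a sterol isomerase, moved less. It measured 9.27, 9.73, 9.35 and 9.25 in KD cells at day 7, against 9.91, 9.89 and 9.89 at day 0, and 9.17, 9.19, 9.18 and 9.42 in Control cells at day 7, against 9.51, 9.72 and 9.71 at day 0. The days did not overlap in either, and Ebp fell by 0.50 ± 0.12 in KD cells (adjusted p = 0.00473) and fell by 0.41 ± 0.12 in Control cells (adjusted p = 0.0246). The Control call of Ebp was lost without day 0 replicate 2 or 3 (adjusted p = 0.0904 and 0.0818) or day 7 replicate 1 or 2 (adjusted p = 0.0648 and 0.062). Hsd17b7, a sterol ketone reductase, measured 11.37, 11.37, 11.18 and 10.95 in KD cells at day 7, against 11.66, 11.68 and 12.11 at day 0. Control cells gave 11.37, 11.37, 11.27 and 11.01 at day 7, against 11.75, 11.74 and 11.99 at day 0. It fell by 0.60 ± 0.15 in KD cells (adjusted p = 0.00578) and fell by 0.57 ± 0.15 in Control cells (adjusted p = 0.0134). The Control call of Hsd17b7 was lost without day 0 replicate 3 (-0.49, adjusted p = 0.0621). Cyp51, Nsdhl and Dhcr7 were called in neither in the fit of all arrays, and Cyp51 differed by 0.65 ± 0.38 in KD cells (adjusted p = 0.219) and by -0.08 ± 0.38 in Control cells (adjusted p = 0.925).

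On the way to lanosterol, Mvd, Fdft1 and Sqle fell in both KD and Control cells. Mvd measured 8.74, 8.63, 7.72 and 8.30 in KD cells at day 7, against 9.37, 9.48 and 9.78 at day 0. The Control arrays read 8.92, 8.86, 7.76 and 8.29 at day 7, against 9.64, 9.89 and 10.18 at day 0. The days did not overlap, and Mvd fell by 1.20 ± 0.29 in KD cells (adjusted p = 0.00578) and fell by 1.45 ± 0.29 in Control cells (adjusted p = 0.00338). Fdft1 measured 10.88, 10.81, 10.17 and 10.68 in KD cells at day 7, against 11.24, 11.26 and 11.69 at day 0. In Control cells it measured 10.63, 10.69, 9.88 and 10.16 at day 7, against 11.52, 11.44 and 11.81 at day 0. Again no day 7 array reached a day 0 array of the same cells. Fdft1 fell by 0.76 ± 0.22 in KD cells (adjusted p = 0.016) and fell by 1.25 ± 0.22 in Control cells (adjusted p = 0.00138). Without day 0 replicate 3 the KD value of Fdft1 was -0.61 (adjusted p = 0.0754).

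Sqle measured 10.31, 10.21, 9.25 and 10.03 in KD cells at day 7, against 10.80, 10.80 and 11.12 at day 0. Its values in Control cells were 10.02, 10.04, 9.03 and 9.33 at day 7, against 10.37, 10.68 and 10.92 at day 0. The days were apart in both, with replicate 3 the lowest at day 7 and the highest at day 0. Sqle fell by 0.96 ± 0.29 in KD cells (adjusted p = 0.0184) and fell by 1.05 ± 0.29 in Control cells (adjusted p = 0.0181). The KD call of Sqle was lost without day 0 replicate 3 (-0.85, adjusted p = 0.0693), and the Control call without day 0 replicate 2 or 3 (-1.04 and -0.92, adjusted p = 0.0561 and 0.0745). Hmgcs1, read from its brightest probe set, was the enzyme called in Control and not in KD cells. It measured 13.26, 13.23, 12.94 and 13.29 in KD cells at day 7, against 13.26, 13.26 and 13.42 at day 0. Control cells gave 13.07, 13.13, 12.68 and 12.97 at day 7, against 13.29, 13.32 and 13.46 at day 0. The days overlapped in KD cells and not in Control cells. The differences were -0.13 ± 0.12 in KD cells (adjusted p = 0.455) and -0.40 ± 0.12 in Control cells (adjusted p = 0.0309), and they differed from each other by 0.27 ± 0.17 (adjusted p = 0.54). The dimmest Hmgcs1 probe set was called in both when all probe sets were tested. It gave -1.12 ± 0.29 in KD cells (adjusted p = 0.01) and -1.02 ± 0.29 in Control cells (adjusted p = 0.0287). The remaining Hmgcs1 probe sets were called in neither. The Control call of Hmgcs1 was lost in 8 of 27 settings: without day 0 replicate 1, 2 or 3 (adjusted p = 0.0596, 0.0673 and 0.111), without day 7 replicate 3 or 4 (adjusted p = 0.0639 and 0.053), in a fit of the Control groups alone (adjusted p = 0.0653), after adding the actin gap to the model (adjusted p = 0.0825), and after taking the mean of replicates 1 and 2 (adjusted p = 0.122).

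Fdps measured 7.92, 8.31 and 9.08 in KD cells at day 0 and 8.31, 8.36 and 8.93 in Control cells. Its difference between days was -0.15 ± 0.46 in KD cells (adjusted p = 0.85) and -1.29 ± 0.46 in Control cells (adjusted p = 0.0591). Without Control replicate 1 or 2 of day 7 the Control value of Fdps was -1.52 and was called (adjusted p = 0.0455 and 0.0452), and without KD replicate 3 of day 7 it was also called (adjusted p = 0.0352). Lss measured 10.39, 10.45 and 10.96 in KD cells at day 0 and 10.82, 10.83 and 11.08 in Control cells. Its probe sets disagreed between days as well: the brightest gave 0.38 ± 0.33 in KD cells and -0.53 ± 0.33 in Control cells, neither called, and the dimmest gave -1.17 ± 0.25 in KD cells and -1.19 ± 0.25 in Control cells, both called when all probe sets were tested (adjusted p = 0.00255 and 0.00491). Mvk, Pmvk and Idi1 were called in neither in the fit of all arrays, with differences from -0.86 to 0.43.

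The SREBP genes parted. Srebf1, whose product mainly drives fatty acid genes, measured 11.07, 11.30, 10.51 and 11.03 in KD cells at day 7, against 10.15, 9.92 and 9.84 at day 0. The Control arrays read 11.09, 11.15, 10.49 and 10.86 at day 7, against 9.73, 9.85 and 9.58 at day 0. Every day 7 array lay above every day 0 array of the same cells. Srebf1 rose by 1.01 ± 0.19 in KD cells (adjusted p = 0.000957) and by 1.18 ± 0.19 in Control cells (adjusted p = 0.000747). Srebf2, whose product mainly drives cholesterol genes, measured 8.95, 8.90, 8.16 and 8.69 in KD cells at day 7, against 9.80, 9.80 and 9.86 at day 0. In Control cells it measured 8.70, 8.75, 8.07 and 8.41 at day 7, against 9.42, 9.54 and 9.71 at day 0. It went the other way in all arrays, and fell by 1.15 ± 0.19 in KD cells (adjusted p = 0.000495) and fell by 1.08 ± 0.19 in Control cells (adjusted p = 0.00167).

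Scap measured 9.68, 9.72, 9.59 and 9.45 in KD cells at day 7, against 10.28, 10.43 and 10.05 at day 0. Its values in Control cells were 9.72, 9.68, 9.48 and 9.75 at day 7, against 10.39, 10.33 and 10.12 at day 0. The gene fell by 0.64 ± 0.11 in KD cells (adjusted p = 0.000706) and fell by 0.62 ± 0.11 in Control cells (adjusted p = 0.00187), with no overlap of the days. Its most variable probe set gave -0.12 in Control cells (adjusted p = 0.803). Insig1 measured 12.92, 12.76 and 13.02 in KD cells at day 0 and 12.77, 12.75 and 12.94 in Control cells. Its differences were -0.29 ± 0.15 in KD cells (adjusted p = 0.153), where the days overlapped, and -0.51 ± 0.15 in Control cells (adjusted p = 0.0254), where they did not. The Control call of Insig1 was lost without any 1 of the day 0 arrays (adjusted p = 0.0589, 0.0529 and 0.0933 without replicates 1, 2 and 3). Insig2 was called in neither.

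Among the transport genes, Npc1 and Mylip fell and the brightest probe sets of both exporters pointed up. Npc1 measured 8.70, 8.97, 9.22 and 8.52 in KD cells at day 7, against 9.89, 10.11 and 9.87 at day 0. Control cells gave 8.74, 8.77, 9.16 and 8.94 at day 7, against 9.90, 10.04 and 9.87 at day 0. Unlike the synthesis genes, it was highest in replicate 3 at day 7. It fell by 1.11 ± 0.16 in KD cells (adjusted p = 0.000122) and fell by 1.04 ± 0.16 in Control cells (adjusted p = 0.000462). Mylip measured 7.25, 7.34, 7.20 and 7.39 in KD cells at day 7, against 8.67, 8.63 and 8.82 at day 0. The Control arrays read 7.57, 7.49, 7.40 and 7.34 at day 7, against 8.52, 8.66 and 8.50 at day 0. Its arrays were tightly grouped, and it fell by 1.41 ± 0.09 in KD cells (adjusted p = 5.36e-07) and by 1.11 ± 0.09 in Control cells (adjusted p = 8.77e-06).

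Abca1 measured 11.09, 11.21, 11.33 and 11.48 in KD cells at day 7 and 11.50, 11.38, 11.33 and 11.11 in Control cells, all above their day 0 arrays. It rose by 0.93 ± 0.19 in KD cells (adjusted p = 0.00168), and its difference in Control cells was 0.43 ± 0.19 (adjusted p = 0.133). Abcg1 rose in Control cells by 0.82 ± 0.24 (adjusted p = 0.0267), though KD cells, at 0.52 ± 0.24, were not called (adjusted p = 0.118) and the Control days overlapped. Without Control replicate 3 of day 0 the Control value was 0.53 (adjusted p = 0.126), and without Control replicate 1 or 2 of day 7 it was 0.70 and 0.72 (adjusted p = 0.077 and 0.0772). With the mean over probe sets it was 0.55 (adjusted p = 0.163). The dimmer Abcg1 probe set gave -0.32 ± 0.35 in KD cells and 0.28 ± 0.35 in Control cells, and was called in neither. For Abca1 the Control value was called without KD replicate 3 of day 0 (0.43, adjusted p = 0.029). The difference between KD and Control cells in these values passed the threshold for neither exporter, at 0.51 ± 0.27 for Abca1 (adjusted p = 0.449) and -0.30 ± 0.34 for Abcg1 (adjusted p = 0.757). Stard4 was called in neither. Over the 27 genes, 4 lay higher and 12 lower without overlap between days in KD cells, against 21.3% and 18% of all genes, and 2 lay higher and 17 lower in Control cells, against 14.2% and 18.6%.

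Further sterol genes outside the list showed a mixed picture. Of 35 such genes 27 were measured. Between KD and Control at day 7, 1 was called higher and 4 lower, where 3.01% of all genes were called higher and 3.57% lower. Scarb1, a receptor for high-density lipoprotein, rose by 0.97 ± 0.21 (adjusted p = 0.0223), the endoplasmic reticulum protein gene Erlin2 fell by 0.86 ± 0.08 (adjusted p = 0.000122), and Lipa, the lysosomal lipase that frees cholesterol from its esters, fell by 0.78 ± 0.16 (adjusted p = 0.0177). The median over the 27 was 0.00. At day 0 Erlin2 alone was called, at -0.73 ± 0.09 (adjusted p = 0.00129), where 0.467% of all genes were called higher and 1.34% lower. With differentiation 8 were higher and 8 lower in KD cells, where 19% of all genes were called higher and 16.8% lower. They were led by Nr1h3, a liver X receptor, at 2.40 ± 0.34 (adjusted p = 0.000136). In Control cells 4 were higher and 8 lower, where 10.1% of all genes were called higher and 12.8% lower. These were led by the cholesterol ester hydrolase gene Nceh1 at -1.28 ± 0.19 (adjusted p = 0.000395).

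Fatty acid genes that SREBPs also drive were counted beside the synthesis genes. Of 13 such genes, 4 rose and 0 fell in KD cells, where 19% of all genes were called higher and 16.8% lower, with Lpin1, a phosphatidate phosphatase, at 1.59 ± 0.34 (adjusted p = 0.00231), Gpam, an acyltransferase of triglyceride synthesis, at 0.94 ± 0.21 (adjusted p = 0.00349), and the malic enzyme gene Me1 at 0.83 ± 0.12 (adjusted p = 0.000142). In Control cells 0 rose and 3 fell, where 10.1% and 12.8% of all genes did: the elongase gene Elovl6 by 0.93 ± 0.26 (adjusted p = 0.0209), and the desaturase genes Fads1 by 0.77 ± 0.18 (adjusted p = 0.00709) and Fads2 by 0.67 ± 0.20 (adjusted p = 0.0267). Between KD and Control at day 7, 12 of the 13 lay above 0, with a median of 0.30. Of all 18193 genes, 8563 lay above 0, with a median of -0.02. The one called gene, the elongase gene Elovl5, lay below, at -0.43 ± 0.08 (adjusted p = 0.008), where 3.57% of all genes were called lower. At day 0, 0 of the 13 were called, 4 lay above 0, and the median was -0.13. Of all genes, 1.8% were called at that day and 7318 lay above 0, with a median of -0.05.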

How the data were processed

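The deposited values were log2 expression values per probe set of a 1-colour expression array. RMA and the affy package are named in the submitters' processing notes, with versions not given in the sources used here; that the deposited values are log2 was read from their range, 1.13 to 14.37. RMA compresses differences of dim genes, and no detection calls or read depth come with these values, so precision rests on how many arrays there are.

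Of 45101 probe sets, 64 controls, 932 with several symbols and 9160 unnamed here were left out. The remaining 34945 gave 18193 genes, each by its probe set of highest mean. The main probe sets of Lss, Mvd, Fdft1 and Hsd17b7 carry suffixes for probes that may match other genes, and those of Hmgcs1, Pmvk, Msmo1 and Srebf1 one for probes shared by transcripts of a gene. Differences came from a linear model of 4 group means with moderated variances (limma 3.58.1, run under R 4.3.3, 12.6 total degrees of freedom), with Benjamini-Hochberg adjustment over all genes. The fit was tested on simulated data.

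Deviations from group means correlated between KD and Control arrays of the same replicate number and day (r across genes 0.55, 0.63, 0.76 and 0.20 at day 7, and 0.30, 0.27 and 0.33 at day 0), and every such r was over 0.1, which was taken as pairing within a day. Arrays did not always correlate best with their own number: KD 1 gave 0.68 with Control 2, and KD 4 gave 0.25 and 0.26 with Control 1 and 2 at day 7. The block within each day was chosen after seeing the data. Alternatives covered leaving out each array, blocks, array weights, other probe sets, a filter on dim genes and a beta-actin covariate.

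The members and all lists were chosen with earlier results of these data known. Array values are printed for members called in any comparison and for the member of largest difference per role, and in the other lists at most the 3 called genes of largest difference are named. Csf1r, Cd14 and the other cell type markers named were chosen after their values were seen.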

Additional observations from a re-analysis of the deposited data

Results flagged for a closer look

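In groups of 4 arrays, 8 of 54 gene and group combinations had 1 array far from the other 3 relative to the group's range. The cut-off has a nominal rate of about 5%, which was not measured over all genes. The combinations share the same arrays and are not independent, so their count is not compared with that rate. Of the 8 flagged, 7 were in replicate 3 at day 7. In KD cells replicate 3 was the low array for Pmvk (10.11), Fdps (7.32), Cyp51 (10.96), Tm7sf2 (6.49), Sc5d (9.01) and Dhcr7 (10.48). In Control cells it was the low array for Tm7sf2 (6.31), and replicate 4 was the high array for Ebp (9.42).

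For 4 synthesis genes KD was higher than Control in 4 of 4 pairs at day 7 and in 0 of 3 pairs at day 0. The day 7 difference minus the day 0 difference was 0.27 for Hmgcs1 (adjusted p = 0.54), 0.50 for Fdft1 (adjusted p = 0.533), 0.91 for Lss (adjusted p = 0.438) and 0.47 for Dhcr7 (adjusted p = 0.636), so limma's test of the difference between days passed for none of them.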

How the results depend on the processing

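With 3 or 4 arrays a group, the count of called sterol genes between KD and Control depended on the setting, while no called direction turned in these comparisons. Percentages in brackets give the share of all genes called in the same setting. At day 7 the count was 1 (6.58%). It was 2 with the replicate block across days (10.2%) and 10 with the replicate block within each day (14.7%). Without both day 7 arrays of number 3 it was 2 (12%), and 7 with within-day pairs and without those arrays (13%). With replicates 1 and 2 averaged it was 0 (0.352%), and 2 with within-day pairs and these averaged (1.68%). With each gene's most variable probe set (largest interquartile range) it was 0 (5.73%). The count was 3 without the dimmest 40% of genes (16.8%) and 4 with array weights (2 higher and 2 lower, 24.7%). With only the 2 groups compared it was 0 (1.83%), and with the beta-actin covariate 4 (15.4%). Leaving out 1 array at a time gave 0 to 4 (2.03% to 15.9%). At day 0 the count was 0 (1.8%). It was 1 with the replicate block across days (3.14%) and 2 with the replicate block within each day (4.64%). Without both day 7 arrays of number 3 it was 1 (3.79%), and 2 with within-day pairs and without those arrays (4.13%). Those 2 were Cyp51, higher, and Insig2, lower, where the block within each day called Cyp51 and Abcg1. With within-day pairs and replicates 1 and 2 averaged it was 0 (0.0385%). The count was 1 without the dimmest 40% of genes (4.56%) and 3 with array weights (9.63%). Leaving out 1 array gave 0 to 1 (0.555% to 3.47%). Between days in Control cells the count was 16 (22.9%), with 10 to 17 when 1 array was left out (16.5% to 25%). It was 10 without Control replicate 3 of day 0 (18%) and 10 with replicates 1 and 2 averaged (8.71%). Between days in KD cells the count was 14 (35.8%), with 11 to 14 when 1 array was left out (30% to 37.9%). It was 11 without KD replicate 3 of day 0 (33.2%). With 1 array left out the synthesis median in KD cells ran from -0.44 to -0.08. With that most variable probe set, the day 7 minus day 0 difference in KD cells was -1.17 for Lss (adjusted p = 0.00198), against 0.38, and 0.15 for Hsd17b7 (adjusted p = 0.788), against -0.60. The cause of these shifts was not tested.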
